A study of Mus musculus with 13 samples.

Results

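The genes described here encode parts of the sarcomere, the contractile unit of striated muscle: thin filament proteins, myosin light chains, Z-disc proteins and proteins linked to titin, with the myosin heavy chains left out. They were given as a list of 41 genes, and each gene was read from its brightest probe set that carries a single gene symbol. Such a probe set was found for 37 of the 41, all of which passed the filter on low signal, among 10411 genes tested of 17097 genes with a probe set of this kind. The annotation at hand did not name one for Mybpc2, Neb, Myom2 or Xirp2, which were not analysed here. For the description, the list was divided into classes. There were 10 genes of fast fibres (9 tested), 7 of slow fibres and 18 shared by both fibre types (15 tested). The last class held 6 genes, known best from heart or from muscle under load except for Myl10. They are called the heart and load genes here. Mybpc1, often called the slow form of myosin-binding protein C, and Tpm2 were placed with the shared genes. Statements on all 7 slow genes rest on this division.

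A sarcomere shortens when calcium binds troponin on the thin filament and tropomyosin moves aside, so that myosin heads can bind actin. Fast and slow fibres build this machine from different gene copies: troponin T, I and C, the myosin light chains and several tropomyosins and Z-disc proteins each have a form that prevails in slow fibres and another that prevails in fast fibres. Mouse quadriceps is made up mostly of fast fibres, with few slow ones in its deeper parts, and fibre type responds to nerve activity, load and hormones.

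The study asked how gain of function and ablation of DOR, an autophagy and transcription regulator whose current gene symbol is Trp53inp2, alter gene expression in skeletal muscle. Quadriceps of male C57Bl/6 mice aged 4 months, kept on standard chow, was profiled on Affymetrix mouse arrays with 1 array per labelled sample. The groups were SKM-KO (3 arrays), read as DOR ablation in skeletal muscle, C (3 arrays), SKM-Tg (4 arrays), read as DOR gain of function in skeletal muscle, and Wt (3 arrays). The labels do not pair the groups: by their names alone, SKM-KO was set against C and SKM-Tg against Wt, and the promoters behind the transgene and the deletion, and any allele that C carries, are not given in the sources used here. Each sample title carries a number, in a lower range for C and SKM-KO and a higher range for Wt and SKM-Tg. What these numbers stand for is not said, and they were not used. Nothing in the labels ties samples to litters or days, so the p-values measure only the spread between these arrays. All values are log2 signals, so a difference of 1 is a doubling of signal on the array, and signals of different probe sets were compared only as ranks, to say how bright a gene was.

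The promoters of 4 slow fibre genes are shown because the 7 slow genes varied together from array to array, as described further on, and these 4 have a single annotated start. Each line is 1 window of 300 bases from RefSeq on GRCm38.p6, 250 bases before and 50 after the annotated start, read 5′ to 3′ on the gene's own strand. Windows were found for 30 of the 41 members. Capitals mark the matches to 4 motifs on either strand: MCAT (CATTCC, read by TEAD factors), MEF2 and CArG (read by MEF2 and SRF), and TATAAA.
Tnnt1 (chr7:4515926-4516225, minus strand): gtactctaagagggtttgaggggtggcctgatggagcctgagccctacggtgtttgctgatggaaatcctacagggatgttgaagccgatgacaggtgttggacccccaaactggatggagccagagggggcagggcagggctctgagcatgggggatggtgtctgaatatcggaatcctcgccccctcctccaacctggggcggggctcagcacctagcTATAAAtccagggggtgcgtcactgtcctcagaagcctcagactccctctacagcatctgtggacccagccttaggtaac
Tnnc1 (chr14:31208062-31208361, plus strand): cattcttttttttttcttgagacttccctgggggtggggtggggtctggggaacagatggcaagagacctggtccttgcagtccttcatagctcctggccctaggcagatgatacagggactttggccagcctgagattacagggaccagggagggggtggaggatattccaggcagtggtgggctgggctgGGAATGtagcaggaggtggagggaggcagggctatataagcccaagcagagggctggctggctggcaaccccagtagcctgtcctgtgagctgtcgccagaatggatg
Myl3 (chr9:110763428-110763727, plus strand): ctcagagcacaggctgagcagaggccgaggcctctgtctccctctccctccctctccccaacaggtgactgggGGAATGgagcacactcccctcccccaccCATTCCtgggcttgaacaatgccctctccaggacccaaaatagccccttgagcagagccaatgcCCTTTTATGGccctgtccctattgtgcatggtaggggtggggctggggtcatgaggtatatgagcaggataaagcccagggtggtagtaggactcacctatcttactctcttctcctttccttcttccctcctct
Myoz2 (chr3:123034938-123035237, minus strand): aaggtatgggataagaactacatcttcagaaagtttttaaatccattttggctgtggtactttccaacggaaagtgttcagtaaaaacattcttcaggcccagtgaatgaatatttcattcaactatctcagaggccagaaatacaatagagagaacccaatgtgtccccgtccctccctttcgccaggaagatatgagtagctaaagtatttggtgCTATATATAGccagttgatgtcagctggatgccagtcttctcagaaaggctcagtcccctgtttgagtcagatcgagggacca
The 4 windows did not share a motif from this set. Tnnt1 held TATAAA 30 bases before the start, Tnnc1 held MCAT 58 bases before it, Myl3 held MCAT at 177 and 149 bases and CArG at 85 bases before it, and Myoz2 held MEF2 33 bases before it. Among all 32851 promoter windows, 14.7% held MCAT, 13.6% TATAAA, 3.2% MEF2 and 1.6% CArG. Among the 30 members with a window, 10 held MCAT (Acta1, Ankrd1, Mybpc2, Myl1, Myl3, Pdlim3, Tnnc1, Tnnt2, Tpm1 and Ttn), 6 TATAAA, 3 MEF2 (Myoz2, Ttn and Xirp2) and 5 CArG (Acta1, Actc1, Ldb3, Myl3 and Myom1). The E-box CANNTG, read by MyoD-type factors, was in 29 of the 30 and in 72.3% of all windows. A member was counted if any of its windows held the motif, while the percentages are shares of single windows. A gene with several starts has more windows to match, so these counts and percentages cannot be compared. A match in so short a window is a run of letters and not a shown binding site, and nothing is drawn from a window without one.

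The target gene was lower in the libraries labelled SKM-KO and no higher in those labelled SKM-Tg. Trp53inp2 had 8.58, 8.79 and 8.99 in SKM-KO, 11.06, 11.19 and 11.15 in C, 11.11, 11.03, 11.28 and 11.24 in SKM-Tg and 11.20, 11.46 and 11.001 in Wt. It was lower in SKM-KO than in C by a log2 difference of -2.35 (adjusted p = 3.76e-06 by limma), while SKM-Tg minus Wt was -0.06 (adjusted p = 0.886), so the array showed no excess of this transcript in the libraries labelled SKM-Tg, and whether its probe set reads the transgene is not known. The tissue label held up: all 8 skeletal muscle markers were strongly detected, and of 8 heart markers only Mybpc3 passed the filter, with the defining genes Nppa, Nppb, Tnni3 and Myl7 below it. The arrays were uneven. The median SD within a group over all genes tested was 0.10 in SKM-KO, 0.10 in C, 0.17 in SKM-Tg and 0.25 in Wt, and Wt 2 stood apart with the highest value of any array for 17 of the 37 members. Adipoq, a fat cell gene chosen after its values were seen, had 4.75, 8.20 and 4.49 in SKM-KO, 5.56, 4.80 and 5.34 in C, 7.66, 9.84, 8.12 and 8.52 in SKM-Tg and 6.31, 8.75 and 5.12 in Wt, and the summed linear signal of 5 fat cell markers was 4640 to 7732 in SKM-Tg and 3942 to 5105 in Wt, 3875 to 5855 in SKM-KO and 3961 to 4864 in C. The fat cell sums lean on Car3, the brightest of the 5 markers in every array at 11.51 to 12.00. Car3 was lowest in Wt 2, where Adipoq was highest among the Wt arrays, so the sums are no clean measure of fat cells. The sum of 4 nerve and Schwann cell markers was 679 to 979 in SKM-KO and 599 to 655 in C. Their part in the results was not tested. In such whole-muscle RNA, fewer cells of a type and less RNA per cell cannot be told apart.

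The members were among the brightest genes of the array: 26 of the 37 had a mean log2 signal of 11 or more, and 25 lay at or above the 99th percentile of all probe sets. The array maxima lay between 13.13 and 13.21, so the brightest of them, such as skeletal actin Acta1 (mean 12.78) and fast troponin C Tnnc2 (mean 12.55), lay close to the top of the scale. The spread of genes this bright was small. The residual SD within groups had a median of 0.09 over the 296 genes with a mean of 11 or more, against 0.19 over all genes tested. A small difference in such a gene may understate the difference in its RNA.

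**Figure D1:**
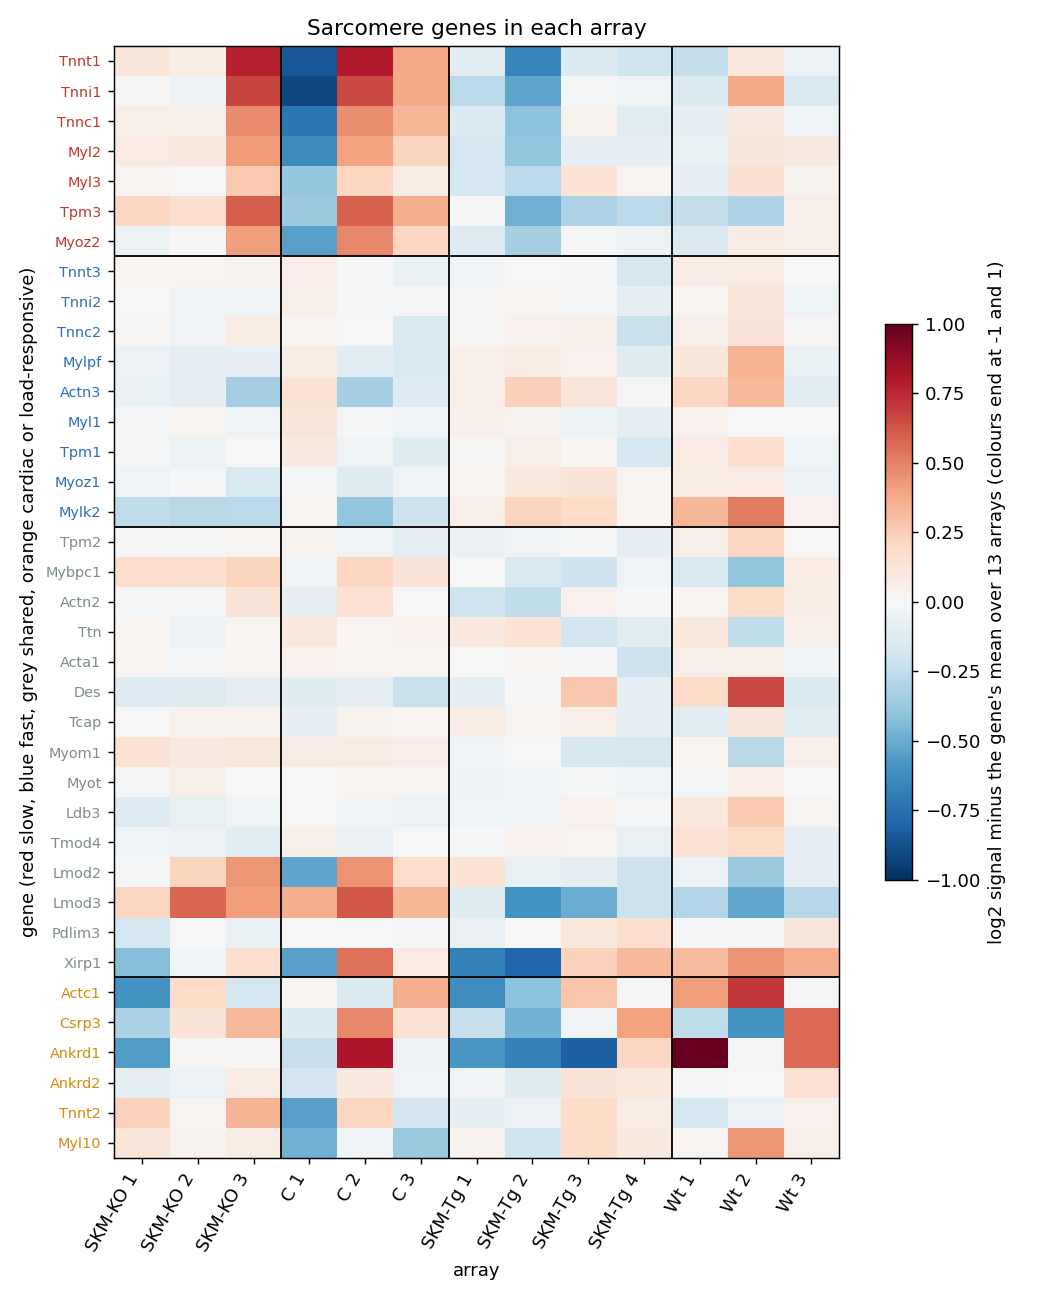
Log2 signal of each of the 37 members (rows) in each of the 13 arrays (columns), as the difference from the gene's own mean over all arrays, in colour. The slow fibre rows at the top run from a deviation of -0.91 for Tnni1 in C 1 to 0.79 for Tnnt1 in C 2, while the fast fibre rows beneath them are paler, with Mylk2 and Actn3 the most coloured.

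No member passed the test in SKM-KO against C. Of the 37, 20 were higher and 17 lower, with a median log2 difference of 0.01, the same as over all genes tested, and 0 had an adjusted p under 0.05, where 0.00961% of all genes did (1 gene, Trp53inp2 itself). The adjusted p was 0.99997 for every member. At an unadjusted p under 0.05 there were 2 members, Myl10 and Tnnt2, both higher in SKM-KO, beside 0.269% of all genes in that direction and 0.557% in either. Groups that did not overlap were seen for 2 members, both higher in SKM-KO (Myl10 and Myom1), beside 4.66% of all genes in that direction, 2.83% in the other and 7.49% in either. No member reached 1.5-fold in either direction.

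The slow fibre genes shared 1 pattern. All 7 stood higher on average in SKM-KO than in C, with a median log2 difference of 0.17, yet every 95% interval held 0 and they reached 0.35 to 0.74 on either side of the estimates. Tnnt1, the slow troponin T that ties troponin to tropomyosin, had 10.83, 10.79 and 11.49 in SKM-KO, 9.87, 11.51 and 11.10 in C, 10.62, 10.07, 10.58 and 10.52 in SKM-Tg and 10.48, 10.82 and 10.66 in Wt. Tnni1, the slow inhibitory subunit, had 11.13, 11.07 and 11.80 in SKM-KO, 10.21, 11.78 and 11.50 in C, 10.85, 10.59, 11.11 and 11.08 in SKM-Tg and 10.99, 11.50 and 10.97 in Wt. In both genes C 1 was the lowest of the 13 arrays and C 2 and SKM-KO 3 were the highest, so that the C arrays enclosed all 3 SKM-KO arrays of Tnnt1.

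The calcium-binding subunit and the light chains followed the same order. Tnnc1, the troponin C of slow and heart muscle, had 11.65, 11.64 and 12.06 in SKM-KO, 10.86, 12.05 and 11.92 in C, 11.45, 11.17, 11.62 and 11.47 in SKM-Tg and 11.50, 11.68 and 11.54 in Wt. Myl2, the slow regulatory light chain, had 11.63, 11.65 and 11.97 in SKM-KO, 10.91, 11.95 and 11.77 in C, 11.37, 11.15, 11.47 and 11.46 in SKM-Tg and 11.48, 11.66 and 11.64 in Wt. C 1 was again lowest in both. It was the lowest array for 6 of the 7 slow genes, and SKM-KO 3 was the highest for 5 of the 7 and C 2 for the other 2.

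Myl3, the slow essential light chain, Tpm3, the slow tropomyosin, and Myoz2, a calsarcin that binds calcineurin at the Z-disc, completed the set. Myl3 lay between 12.10 and 12.37 in SKM-KO and between 11.72 and 12.32 in C. Tpm3 had 11.88, 11.83 and 12.28 in SKM-KO, 11.30, 12.26 and 12.03 in C, 11.66, 11.19, 11.36 and 11.40 in SKM-Tg and 11.43, 11.36 and 11.73 in Wt. Myoz2 lay between 10.68 and 11.15 in SKM-KO and between 10.18 and 11.21 in C. Every one of the 7 overlapped between the 2 groups.

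The direction depended on single arrays. Without C 1 all 7 slow genes stood lower in SKM-KO than in C, with a median of -0.20, and without SKM-KO 3 only 3 of the 7 stood higher, with a median of -0.01. With array quality weights, which did not converge, 4 of the 7 stood higher and the median was 0.00. For Tnnt1 the difference was 0.21 (SE 0.33) with all arrays, -0.27 without C 1 and -0.01 without SKM-KO 3, and for Myl2 it was 0.21 (SE 0.22) with all arrays and -0.11 without C 1.

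**Figure D2:**
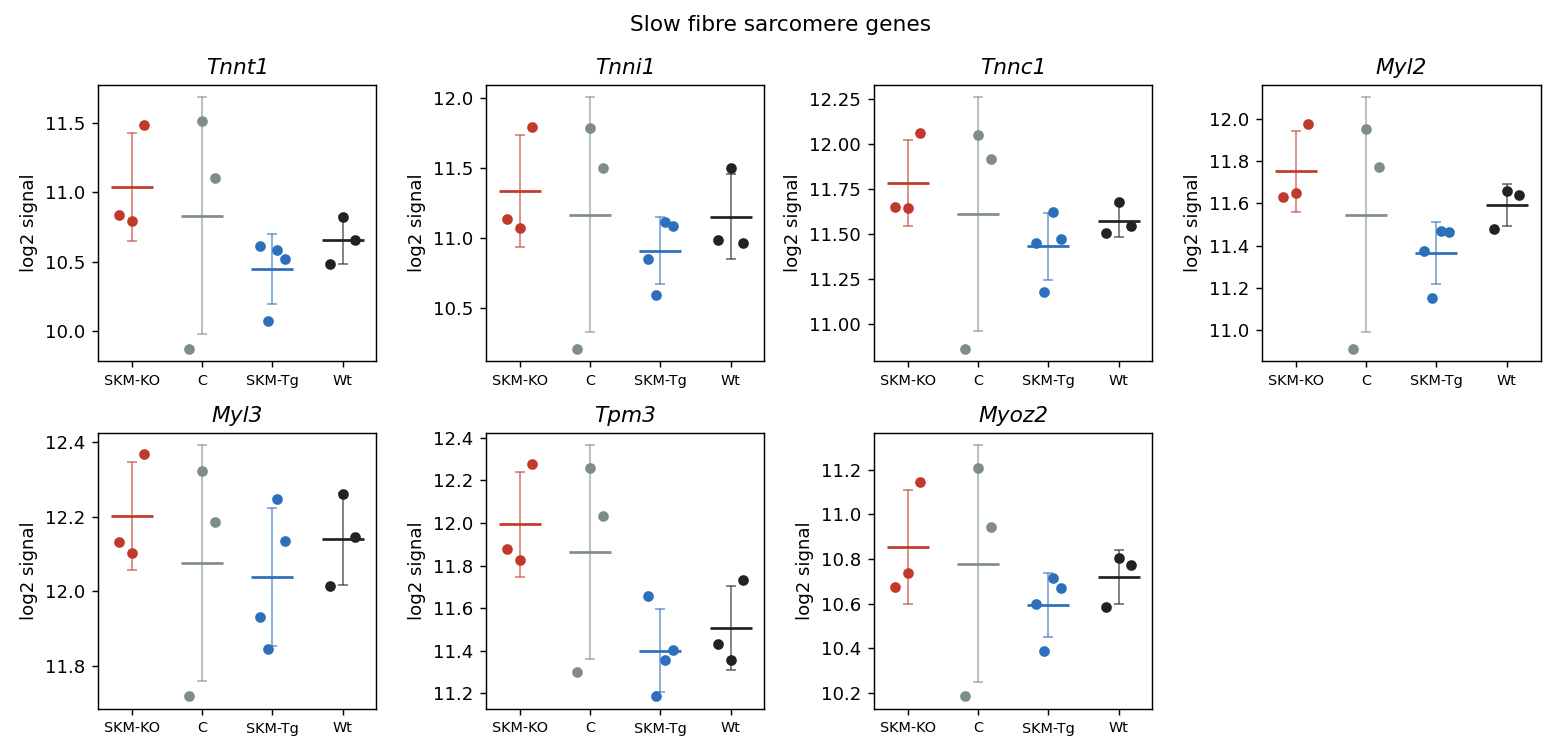
Log2 signal of the 7 slow fibre genes in every array (points), by group, with the group mean (line) and SD (bar); each panel has its own axis. The C arrays spread the most, with Tnnt1 from 9.87 to 11.51, and the 3 SKM-KO arrays of that gene lie within this range.

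None of the fast fibre genes differed beyond its error. Of 9 tested, 3 were higher and 6 lower in SKM-KO, and their log2 differences lay between -0.08 and 0.06, with 95% intervals of 0.18 to 0.32 on either side. Tnnt3, the fast troponin T, had 12.31, 12.31 and 12.31 in SKM-KO, 12.35, 12.27 and 12.21 in C, 12.25, 12.28, 12.26 and 12.12 in SKM-Tg and 12.36, 12.36 and 12.29 in Wt. Its SKM-KO minus C difference was 0.03 (SE 0.08). Actn3, the alpha-actinin of the fastest fibres, and Mylk2, the kinase of the regulatory light chain, were at -0.06 and -0.08. The rest of the fast set, Tnni2, Tnnc2, Mylpf, Myl1, Tpm1 and Myoz1, lay between -0.03 and 0.06.

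The shared genes of the thin filament, Z-disc and titin system split evenly, 7 higher and 8 lower of 15 tested in SKM-KO. Titin itself, Ttn, the spring that runs from Z-disc to M-band, was at -0.06, and Acta1 at -0.02. The largest difference in this class was that of Lmod2, a leiomodin that seeds actin filaments, at 0.18 (95% interval -0.27 to 0.64), which became -0.10 without C 1 and 0.39 without C 2. Myom1, the M-band protein myomesin, had 11.64, 11.60 and 11.60 in SKM-KO, 11.58, 11.58 and 11.56 in C, 11.46, 11.50, 11.33 and 11.32 in SKM-Tg and 11.51, 11.22 and 11.55 in Wt, so its groups did not overlap in SKM-KO and C and the difference was 0.04.

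The 2 smallest p-values were those of Myl10 and Tnnt2, both counted with the heart and load genes, Myl10 only by the division used here. Myl10, a regulatory light chain, had 6.19, 6.10 and 6.14 in SKM-KO, 5.58, 6.04 and 5.69 in C, 6.10, 5.86, 6.25 and 6.16 in SKM-Tg and 6.09, 6.50 and 6.12 in Wt. The difference was 0.37 (SE 0.15, 95% interval 0.05 to 0.69 by limma), and all 3 SKM-KO arrays lay above all 3 C arrays. Tnnt2, the cardiac troponin T, had 6.33, 6.12 and 6.44 in SKM-KO, 5.56, 6.31 and 5.91 in C, 6.01, 6.04, 6.28 and 6.17 in SKM-Tg and 5.92, 6.04 and 6.14 in Wt. Its difference was also 0.37 (SE 0.16, 95% interval 0.01 to 0.73), with C 2 inside the SKM-KO range, and it was 0.19 without C 1 and 0.56 without C 2. Its second probe set gave 0.70, and the brighter one is of a design that can bind related transcripts. C 1 was the lowest of the 13 arrays for both Myl10 and Tnnt2.

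**Figure D3:**
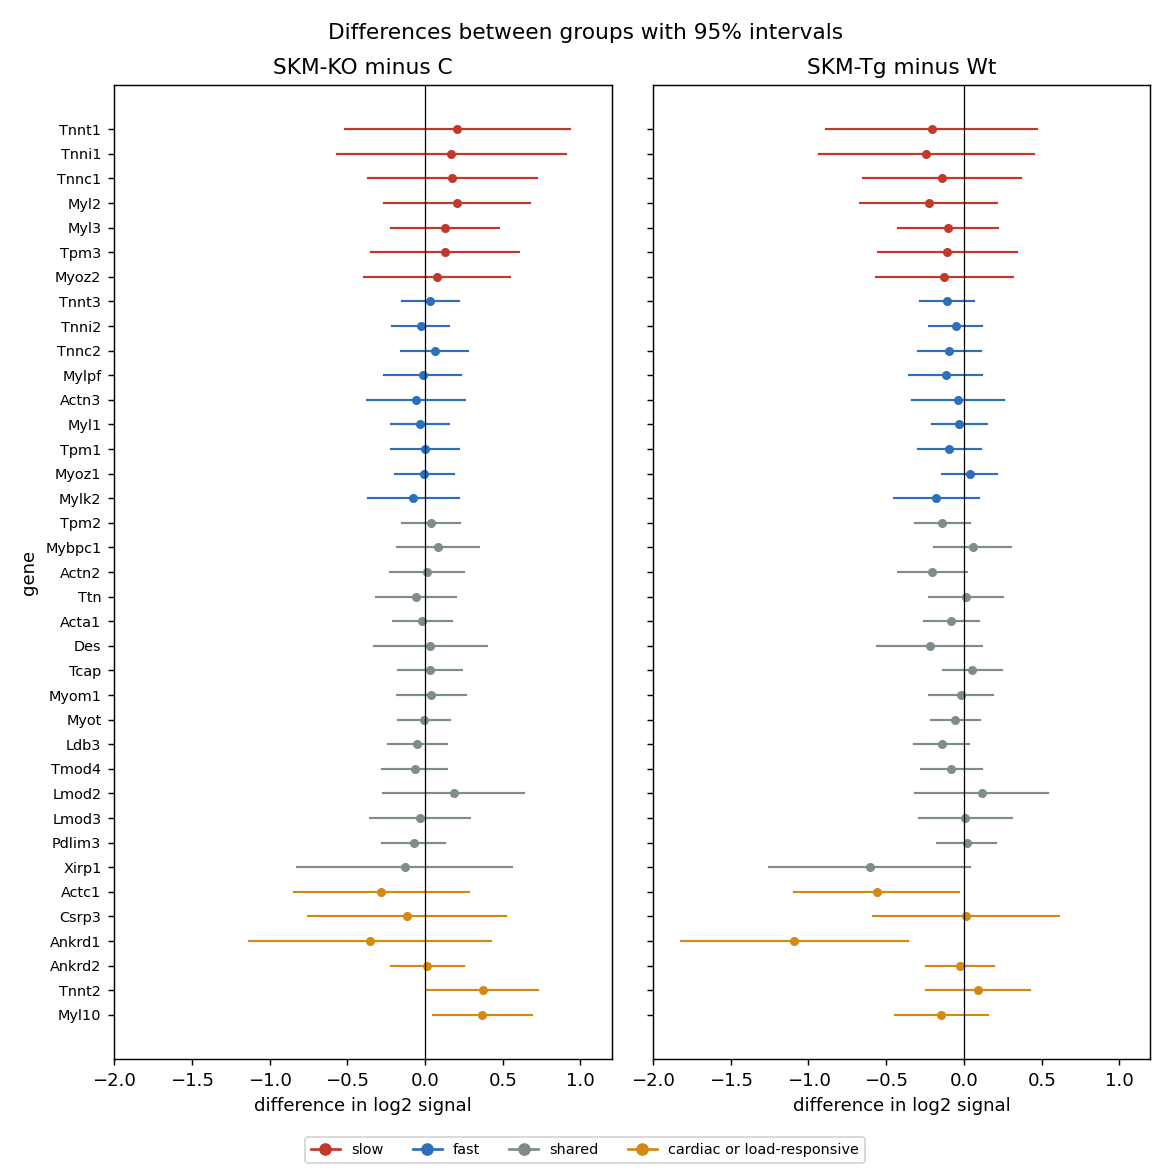
Difference in log2 signal for each of the 37 members (points) with its 95% interval (lines), SKM-KO minus C on the left and SKM-Tg minus Wt on the right, coloured by class. The slow genes all lie right of 0 on the left (median 0.17) and left of 0 on the right (median -0.14), and each of their intervals crosses 0.

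SKM-Tg against Wt leaned lower, again without a call. Of 37 members 28 were lower and 9 higher, with a median of -0.09 against -0.05 over all genes tested, and 0 passed the test, as did 0% of all genes. At an unadjusted p under 0.05 there were 2 members, both lower, beside 5.39% of all genes in that direction (717 genes, 6.89%, in either). Groups did not overlap for 4 members, all lower in SKM-Tg (Tpm2, Tnnt3, Myl2 and Myot), beside 2.79% of all genes in that direction, 1.18% in the other and 3.97% in either.

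Ankrd1, the stretch-induced ankyrin repeat protein CARP that binds titin, had the largest difference of any member. It had 6.39, 6.95 and 6.96 in SKM-KO, 6.71, 7.75 and 6.90 in C, 6.36, 6.26, 6.13 and 7.15 in SKM-Tg and 8.26, 6.93 and 7.51 in Wt. The difference was -1.09 (SE 0.34, 95% interval -1.82 to -0.36, adjusted p = 0.691 by limma), or 2.13-fold lower in SKM-Tg, and SKM-Tg 4 reached above Wt 2, so the groups overlapped. A second probe set gave -1.13, and leaving out 1 array at a time gave -1.41 to -0.75.

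Actc1, the cardiac actin that is also made in developing and regenerating fibres, had 8.89, 9.67 and 9.31 in SKM-KO, 9.51, 9.35 and 9.85 in C, 8.87, 9.08, 9.76 and 9.48 in SKM-Tg and 9.91, 10.19 and 9.48 in Wt. Its difference was -0.56 (SE 0.24, 95% interval -1.09 to -0.03, adjusted p = 0.702), with SKM-Tg 3 and SKM-Tg 4 at or above Wt 3. Its sequence is close to that of Acta1, so its value is uncertain. Of 6 tested markers of regenerating fibres and satellite cells 5 were lower in SKM-Tg, as were 6471 of all 10411 genes. Among the 6, 2 were lower with an unadjusted p under 0.05 by limma, beside 5.39% of all genes in that direction. The summed signal of the 8 listed, of which Pax7 and Myf5 were below the filter, lay between 482 and 567 in SKM-Tg. In Wt it was 614, 799 and 572, with the highest in Wt 2. Their part in the value of Actc1 was not tested.

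Xirp1, an actin-binding repeat protein of the intercalated disc and of injured fibres, had 10.35, 10.75 and 10.94 in SKM-KO, 10.24, 11.33 and 10.86 in C, 10.10, 9.98, 11.01 and 11.10 in SKM-Tg and 11.09, 11.23 and 11.14 in Wt. The 3 Wt arrays lay close together and the SKM-Tg arrays fell into a low and a high pair, and the difference of -0.61 (SE 0.30, 95% interval -1.25 to 0.04, adjusted p = 0.702) was within that spread. Csrp3, the muscle LIM protein, and Ankrd2, the other titin-binding ankyrin repeat protein of this set, were at 0.01 and -0.03.

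**Figure D4:**
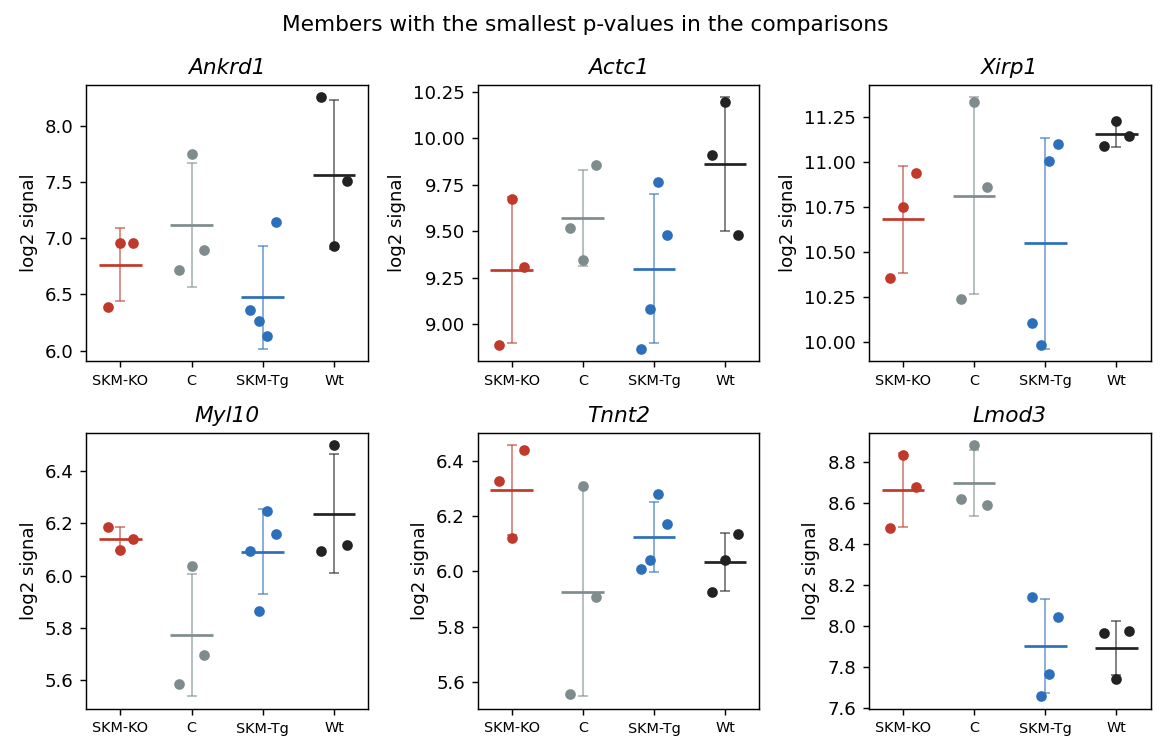
Log2 signal of 6 members in every array (points), by group, with the group mean (line) and SD (bar); each panel has its own axis. Ankrd1 is lower in 3 of the 4 SKM-Tg arrays than in all 3 Wt arrays, and Lmod3 separates SKM-KO and C (8.48 to 8.88) from SKM-Tg and Wt (7.66 to 8.14).

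The slow genes stood lower in SKM-Tg than in Wt, all 7 of them, with a median of -0.14 and 95% intervals that all held 0. Myl2 was the only one without overlap, with SKM-Tg arrays of 11.15 to 11.47 below Wt arrays of 11.48 to 11.66, and its difference was -0.23 (SE 0.20, adjusted p = 0.730). For Tnnt1 it was -0.21 (SE 0.31, adjusted p = 0.832), and SKM-Tg 2 was the lowest SKM-Tg array of all 7 genes. All 7 stayed lower under median centring and under quantile and loess normalization, and 6 of 7 without Wt 3. All 7 were also lower with array weights (median -0.27), but those weights did not converge and gave Wt 1 a weight near 0. The 7 genes varied together, as described further on, so they do not count as 7 separate observations.

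The fast genes were lower in 8 of 9, by between 0.03 and 0.18, and Myoz1 was higher by 0.04. The dimmer second probe set of Myoz1 (mean 9.66) gave 0.36 (95% interval 0.03 to 0.69, adjusted p = 0.717 by limma). Tnnt3 was at -0.11 (SE 0.08, adjusted p = 0.703), with each SKM-Tg array below each Wt array. Under quantile normalization, or with the array weights that did not converge, 6 of the 9 were lower. Among the shared genes Actn2, the alpha-actinin of all fibres, was at -0.20 (SE 0.10, adjusted p = 0.702) and Ldb3, the Z-disc adaptor Cypher, at -0.14 (SE 0.08, adjusted p = 0.702). Tpm2, the beta-tropomyosin, had 12.41, 12.45, 12.47 and 12.38 in SKM-Tg against 12.54, 12.68 and 12.48 in Wt. Its difference was -0.14 from a probe set of the design that can bind related transcripts, and its other probe sets gave -0.11 to -0.06. Mybpc1 was higher in SKM-Tg by 0.06 (SE 0.11), unlike the 7 slow genes. Desmin, Des, the intermediate filament that links Z-discs, had 10.83, 10.90, 11.19 and 10.84 in SKM-Tg against 11.11, 11.58 and 10.78 in Wt. Its difference was -0.22 (95% interval -0.56 to 0.12), and it was -0.01 without Wt 2, the highest of the 13 arrays, and -0.41 without Wt 3. Without Wt 2, Tpm2 and Ldb3 were each at -0.08.

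Wt 2 was not high throughout. It was the lowest array for Ttn (11.77), Myom1 (11.22), Mybpc1 (11.12) and Csrp3 (11.09), while it was the highest for Des, Ldb3, Mylpf, Mylk2 and Tpm2. Dmd, the very long dystrophin gene, looked at after its values were seen, had 8.58, 8.68 and 8.78 in SKM-KO, 8.44, 8.71 and 8.73 in C, 8.54, 7.89, 6.94 and 7.36 in SKM-Tg and 7.29, 5.28 and 8.63 in Wt, with its lowest value in the same array. Whether RNA quality had a part in these values was not tested.

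No member passed the test of whether the 2 contrasts differ. For the difference of the effects, SKM-Tg minus Wt less SKM-KO minus C, 29 of 37 members were below 0, with a median of -0.10 against -0.06 over all genes, and 0 passed the test, beside 0.0192% of all genes (2 genes). Myl10 had the smallest p, at -0.51 (SE 0.20, 95% interval -0.95 to -0.08, adjusted p = 0.989), and it alone had an unadjusted p under 0.05, beside 2.36% of all genes in that direction and 3.1% in either. Tpm2 (-0.18, SE 0.12), Actn2 (-0.22, SE 0.15), Ankrd1 (-0.74, SE 0.49) and Myl2 (-0.43, SE 0.30) came next, each with an adjusted p of 0.989. The other probe sets of Tpm2 gave -0.14 to -0.07. All 7 slow genes were below 0 with a median of -0.32, but without C 1 the value of Tnnt1 was 0.06 instead of -0.42.

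Wt was also compared with C, and this comparison shares the C arrays with that of SKM-KO and the Wt arrays with that of SKM-Tg. No member passed the test, where 0.00961% of all genes did (1 gene), although 4 members had an unadjusted p under 0.05 beside 27.8% of all genes (16.2% higher in Wt), and groups did not overlap for 5 members beside 23.9% of all genes (8.51% lower in Wt). Lmod3, a leiomodin needed for thin filaments in skeletal muscle, had 8.48, 8.83 and 8.68 in SKM-KO, 8.62, 8.88 and 8.59 in C, 8.14, 7.66, 7.77 and 8.05 in SKM-Tg and 7.97, 7.74 and 7.97 in Wt. It was lower in Wt than in C by -0.80 (SE 0.15, 95% interval -1.12 to -0.48, adjusted p = 0.144), and the 7 arrays of SKM-Tg and Wt all lay below the 6 of SKM-KO and C, which was so for no other member but Myom1, beside 2.66% of all genes in that direction and 5.98% in either. Mylk2 was higher in Wt, with 10.47, 10.66 and 10.18 against 10.17, 9.75 and 9.93 in C (difference 0.49, adjusted p = 0.144). Myl10 was higher by 0.47 (adjusted p = 0.145) and Des by 0.38 (adjusted p = 0.167).

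The calls in that comparison depended on Wt 3. Without Wt 3, 4119 of all genes and 5 members were called: Lmod3 and Mybpc1 lower, Mylk2, Des and Myl10 higher. The same step called 30 genes in SKM-Tg minus Wt, with 0 members among them. Leaving out any other array called no member in any comparison. Nothing in the labels separates line, breeding and array batch between Wt and C, so these cannot be told apart.

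The median spread within groups was larger for the slow and the heart and load genes than for the others, as a description that does not match genes by signal level. Over all genes tested the median SD was 0.20 at means of 6.0 to 6.5 and 0.07 from 12.0. Myl10 (mean 6.06, SD 0.18) and Tnnt2 (mean 6.10, SD 0.21) were near that of their level. Ankrd1, Actc1, Csrp3 and Tnnt1 lay above the medians of 0.22, 0.19, 0.08 and 0.13 at theirs. The residual SD, pooled within groups, had a median of 0.30 for the 7 slow genes, 0.10 for the 9 fast genes, 0.10 for the 15 shared genes and 0.29 for the 6 heart and load genes. The largest were those of Ankrd1 (0.51), Tnni1 (0.48), Tnnt1 (0.47), Xirp1 (0.45) and Csrp3 (0.41). The smallest were those of Myot (0.03), Tnni2 (0.05), Tnnt3 (0.06), Myl1 (0.06) and Tpm2 (0.06). Myotilin, a Z-disc protein that binds actinin, had 11.79 to 11.82 in SKM-Tg and 11.83 to 11.91 in Wt, and its spread was smaller than that of all but 0.0480% of genes.

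The slow genes varied most in another group than the median gene did. Their median SD was 0.25 in SKM-KO, 0.56 in C, 0.19 in SKM-Tg and 0.12 in Wt, so that it was highest in C, where the median gene had its smallest SD, and lowest in Wt, where the median gene had its largest. The median deviation of the slow genes from their own means was -0.64 in C 1, 0.48 in C 2 and 0.33 in C 3. Those of the fast genes were 0.06, -0.03 and -0.12 in the same arrays.

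Co-variation with Tnnt1 was tested on values centred on their own group means, over 13 arrays, with Tnnt1 values permuted within groups in all 5184 ways and p-values adjusted over 20 genes. All 6 other slow genes followed Tnnt1 and had an unadjusted exact p under 0.05 with r above 0, beside 5.74% of all genes tested (8.46% with r of either sign). Pearson's r was 0.96 for Tnni1, 0.98 for Tnnc1, 0.98 for Myl2, 0.90 for Myl3, 0.90 for Tpm3 and 0.99 for Myoz2, with adjusted exact permutation p-values of 0.0109 to 0.0178 (two-sided). Spearman's rho lay between 0.82 and 0.97, with adjusted exact p-values of 0.0193 to 0.0371. These adjustments cover 20 genes chosen with earlier results known. Adjusted over all genes tested, the exact permutation p was 0.577 for each of the 6, and 0 members were called, as were 0% of all genes. The smallest p that 5184 arrangements allow is 0.000193, so over 10410 genes a call needs many genes at or near that floor. This adjustment therefore cannot decide whether the 6 coefficients stand out.

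The coefficients stayed above 0 without the extreme arrays and in both lines. Without C 2 and SKM-KO 3, the arrays farthest from the median of Tnnt1 signal, r was 0.82 to 0.98. Without C 1 and C 2, which lay farthest once group means were removed, it was 0.72 to 0.95, again lowest for Tpm3. Within the 6 arrays of SKM-KO and C it was 0.989 to 0.9995 and within the 7 of SKM-Tg and Wt 0.48 to 0.91, lowest for Tpm3. Leaving out 1 array at a time kept 5 or 6 of the 6 genes past the threshold over the 20 genes, and the gene lost was Tpm3 each time, with r of 0.74 without C 1.

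Of 6 slow fibre markers outside the members that passed the filter, Myh7, Atp2a2 and Casq2 were chosen for this test, and these moved with Tnnt1. Pln, Ldhb and Mb were not put into it. Pln was lowest of the C arrays in C 1 (6.84), as was Tnnt1. Among the SKM-Tg arrays Pln was highest in SKM-Tg 2 (7.26), where Tnnt1 was lowest (10.07). The adjusted p-values given next are over the 20 genes. The slow myosin heavy chain Myh7 had r = 0.99 (rho 0.96, adjusted exact p = 0.0109), the slow calcium pump Atp2a2 had r = 0.87 (rho 0.73, adjusted exact p = 0.0283) and Casq2, the slow and cardiac calsequestrin, had r = 0.78 (rho 0.76, adjusted exact p = 0.0109). By Spearman's rho the adjusted exact p of Atp2a2 was 0.0802. Myh7 had 11.48, 11.42 and 11.89 in SKM-KO, 10.72, 11.97 and 11.72 in C, 11.25, 10.80, 11.25 and 11.20 in SKM-Tg and 11.18, 11.23 and 11.18 in Wt, with the same lowest and highest arrays as Tnnt1.

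The fast genes did not follow. All 9 had r below 0, between -0.75 and -0.08, and 1 of 9 passed over the 20 genes, Actn3, with r = -0.73 (rho -0.62, adjusted exact p = 0.0424) and an adjusted exact p of 0.116 by Spearman's rho. Without C 1 and C 2, r was -0.52 for Actn3 and was above 0 for Tnnc2, Mylpf and Tpm1, so the sign of those 3 rested on these arrays. Actn3 had 11.76, 11.74 and 11.49 in SKM-KO, 11.97, 11.50 and 11.71 in C, 11.89, 12.07, 11.96 and 11.82 in SKM-Tg and 12.04, 12.16 and 11.72 in Wt. Myl1, the fast essential light chain, had r = -0.75 with an adjusted exact p of 0.0833. The fast myosin heavy chain Myh4 had r = -0.52 (adjusted exact p = 0.207) and Pvalb, the parvalbumin of fast fibres, r = -0.66 (adjusted exact p = 0.0340, and 0.145 by Spearman's rho).

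The other 21 members were added after the values had been seen, which made a family of 41 genes. Of these 21, 5 had an unadjusted exact p under 0.05, all with r above 0, against the 5.74% of all genes tested. Over the 41 genes 2 passed, Ankrd2 with r = 0.76 (adjusted exact permutation p = 0.0372) and Actn2 with r = 0.71 (adjusted exact permutation p = 0.0257). By Spearman's rho only Actn2 did. Over all genes tested neither did (adjusted exact permutation p = 0.577 for both), under the same limit on the smallest possible p. Tnnt2 and Lmod2 had higher coefficients, 0.85 and 0.81, without passing (adjusted exact permutation p = 0.0826 and 0.125). Within the SKM-Tg and Wt arrays Lmod2 stood at -0.18. Mybpc1 and Tpm2, which could also be set with the slow genes, had r of 0.38 and -0.19 over the 13 arrays and did not pass.

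**Figure D5:**
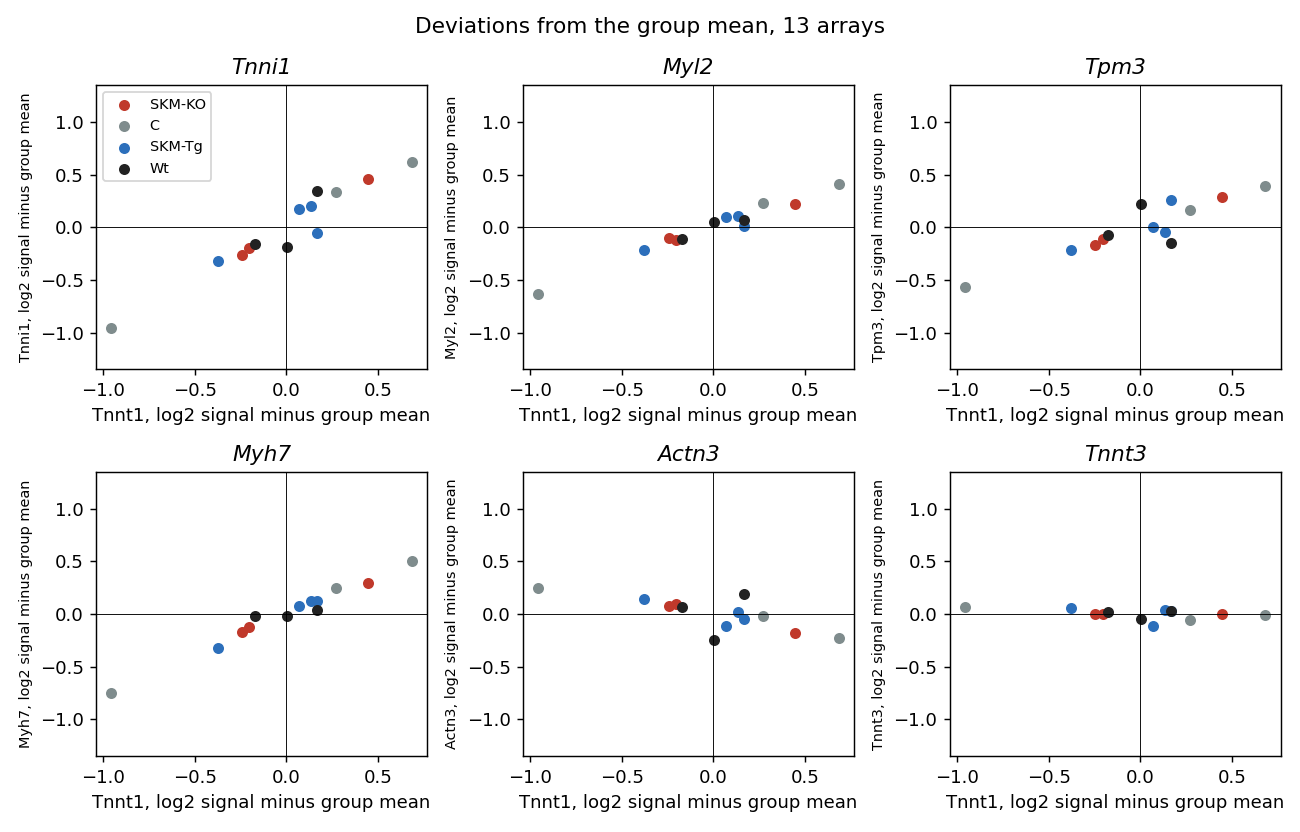
Deviation from the group mean in log2 signal of 6 genes (vertical axes, all on 1 scale) against that of Tnnt1 (horizontal axes) in the 13 arrays (points, coloured by group). Tnni1, Myl2, Tpm3 and Myh7 climb with Tnnt1 (r of 0.96, 0.98, 0.90 and 0.99), Actn3 slopes downward (r = -0.73) and Tnnt3 stays flat.

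Related genes outside the list were read in the same way. Of 36 other sarcomere and costamere genes tested, 0 were called in any comparison. Mybph, a relative of myosin-binding protein C, had 6.22, 6.22 and 5.98 in SKM-KO, 7.39, 6.31 and 6.23 in C, 8.54, 8.97, 9.06 and 8.17 in SKM-Tg and 7.83, 8.47 and 7.42 in Wt. It was higher in SKM-Tg than in Wt by 0.78 (adjusted p = 0.702) and lower in SKM-KO than in C by -0.50 (95% interval -1.22 to 0.21), a difference of the effects of 1.28 (adjusted p = 0.989). Vcl, Klhl40 and Smyd1, from the same list, were lower in SKM-Tg than in Wt by -0.24, -0.54 and -0.22, each with an adjusted p of 0.702.

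Of 6 myosin heavy chains tested, 0 were called. Myh3, the embryonic chain, was lower in SKM-Tg than in Wt by -0.33 (adjusted p = 0.702), with no overlap of the 2 groups. Of 6 slow and 8 fast fibre markers outside the members and 9 fibre type regulators, 0 were called in any comparison. Eya3, a transcription co-activator, was at -0.28 in SKM-Tg minus Wt (adjusted p = 0.702). The 9 regulators include Hdac5, which a synonym match put in place of the listed Hdac4. In Wt minus C, 5 of the 9 regulators were higher, Hdac5 among them, and 4 lower. At an unadjusted p under 0.05 by limma there were 3 in each direction, beside 27.8% of all genes in either. Mef2c, a factor that reads the MEF2 motif, was lower in Wt than in C by -0.93 (adjusted p = 0.145). Tead1, which reads MCAT, was lower by -0.54 (adjusted p = 0.145). Both had their lowest value in Wt 2. Mef2d, from the same list, was higher, with 9.49, 9.81 and 9.15 in Wt against 9.13, 9.08 and 9.07 in C.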

How the data were processed

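The authors deposited log2 signals for 45141 probe sets and 13 arrays, made with RMA, per the submitters' processing notes, which give no version. RMA corrects background, brings arrays to 1 distribution and summarises probes, so it compresses differences of very bright and very dim probe sets. Control probe sets (104) were left out. Names came from the platform annotation: 28898 probe sets had 1 symbol, 551 several and 15588 none here, and genes took their brightest single-symbol probe set. Genes were tested where its mean reached 4.90, the median over non-control probe sets. One limma 3.58.1 model (R 4.3.3) held all 13 arrays (1 mean per group, empirical Bayes, two-sided, Benjamini-Hochberg over 10411 genes, threshold 0.05). Errors are SE of the fit unless marked SD. Co-variation was tested in Python 3.11.15. The fit was tested on simulated data. Members, lists and tests were chosen with earlier results of these data known. All members may be named; full statistics went to the 5 smallest p-values per comparison and to Tnnt1, Myl2 and Tnnt3, and other lists were limited to the 4 smallest p-values per list and comparison and a few fibre type genes. An array has no read depth, and the number of arrays limits the precision. No scan date or batch is given in the labels. The alternatives were normalization, filter, probe set rule, moderation, array weights, separate fits and leaving out each array.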

Additional observations from a re-analysis of the deposited data

Results flagged for a closer look

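3 values were singled out in the SKM-Tg group of 4 arrays, where the lowest array's gap to the next, divided by the range of the group, exceeded 0.829. All 3 lay in SKM-Tg 4: fast troponin C Tnnc2 at 12.32 against 12.55 to 12.60 in the other SKM-Tg arrays, the fast regulatory light chain Mylpf at 11.83 against 11.99 to 12.02, and skeletal actin Acta1 at 12.58 against 12.77 to 12.80. Chance alone singles out about 1 in 20 groups, and 37 members were examined. SKM-Tg 4 was the lowest of all 13 arrays for 7 members and its median deviation over all genes tested was -0.04, against -0.07 over the members. No member passed the test of the difference between the SKM-Tg and the SKM-KO effects.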

How the results depend on the processing

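The count of 0 members called held in 90 of 91 recomputed counts, over 10 other settings and 13 arrays left out in turn, and became 5 in Wt minus C without Wt 3. The count of 6 slow genes that followed Tnnt1 became 0 when exact p-values were adjusted over all genes tested, an alternative added after seeing the data. The smallest possible exact p, 0.000193, limits what that alternative can call. All genes called in Wt minus C were 0 under quantile or loess normalization, no filter, array weights or a separate fit, 2 with the mean or with every one of a gene's probe sets, and 0 to 4119 with 1 array left out. In SKM-Tg minus Wt they were 0 to 30 with 1 array left out. In SKM-KO minus C they were 2 with the mean or with every probe set. In the difference of the effects they were 1 with median centring, the stricter filter, every probe set or array weights, and 1 to 2 with 1 array left out. The members' median moved to -0.046 in SKM-Tg minus Wt and to -0.033 in the difference under quantile normalization. With 1 array left out it was -0.034 to 0.041 in SKM-KO minus C, -0.15 to -0.051 in the difference and 0.024 to 0.13 in Wt minus C. The median of the slow genes, a summary added after seeing the data, was -0.20 to 0.40 in SKM-KO minus C, -0.21 to -0.06 in SKM-Tg minus Wt and -0.41 to 0.19 in Wt minus C with 1 array left out, and -0.27 in SKM-Tg minus Wt with array weights. Of the recomputed values of named members 4 turned sign: Tnnt1 in SKM-KO minus C to -0.27 without C 1 and to -0.01 without SKM-KO 3, Myl2 in SKM-KO minus C to -0.11 without C 1, and Tnnt1 in the difference to 0.061 without C 1. With 1 array left out Tnnt1 was -0.27 to 0.55 and Myl2 -0.11 to 0.41 in SKM-KO minus C, and Tnnt1 -0.76 to 0.061 in the difference. None of these values passed the test before or after. The cause of these shifts was not tested. The array weights did not converge and gave Wt 1 a weight near 0.

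Probe sets of 1 gene disagreed in sign in SKM-KO minus C for Des, Tnni2, Tpm1 and Tpm3, so 7 of 11 members with several probe sets had 1 direction. In SKM-Tg minus Wt this was 9 of 11, with Tpm1 and Tpm3 in disagreement. No paired analysis was possible because the labels give no replicate numbers shared between groups.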
